A study of Mus musculus with 6 samples.

Results

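Flt3, Kit, Xcr1, Clec9a, Cd209a, Siglech, Zbtb46 and Batf3 are genes used to tell dendritic cell subsets and their precursors apart, and each was found by its symbol in 1 row of the deposited expression table, giving 8 genes of 55951. RNA was sequenced from spleen cells sorted as effector-memory CD8+ T cells in an ovalbumin (OVA) model of asthma. The S100A4-positive cells carried the gate CD3+CD8+CD4-CD44+CD62L-EGFP+ and the S100A4-negative cells the gate CD3+CD8+CD4-CD44+CD62L-EGFP-, with 3 libraries in each group. All mice were C57BL/6 with the S100A4-EGFP genotype (S100A4WT-EGFP), so that EGFP stands for S100A4 in the gate; the labels do not describe the reporter construct and give the treatment as untreated. S100A4 is a small calcium-binding protein that myeloid cells make as well as activated T cells. The groups share the strain, the genotype and the asthma model and differ in the EGFP gate. The labels do not say whether the 3 libraries of a group came from separate animals, so p-values measure the spread between these libraries only.

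Dendritic cells take up antigen and present it to T cells. Conventional type 1 dendritic cells, which depend on BATF3 and carry XCR1 and CLEC9A, present antigen from dead cells to CD8+ T cells; conventional type 2 dendritic cells mainly prime CD4+ T cells, and plasmacytoid dendritic cells, marked by SIGLEC-H in the mouse, make type I interferon. FLT3 and its ligand drive the development of all of them from bone marrow precursors, and the spleen holds all of these subsets.

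Levels are the deposited FPKM, which are scaled to a transcript length and to sequencing depth. The length implied by the deposited values was 2371 bases for Kit, of 8911 annotated exon bases. For Flt3 it was 3804 of 6176, and for Xcr1 4453 of 4453. Levels of different genes are therefore comparable only as far as the lengths used are right. The libraries held 14925260 to 18660188 reads, recovered from the deposited values. Each fold change is the S100A4-positive mean of log2(FPKM + 1) less the S100A4-negative mean, a scale on which changes of weakly expressed genes come out too small. The filter kept the 13241 genes whose mean over the 6 libraries reached 1 FPKM, among them all 8 genes, and a gene was called at a limma adjusted p under 0.05 over all of these. S100a4 itself gave 9, 25 and 11 reads in S100A4-positive libraries and 0, 3 and 1 in S100A4-negative ones. The labelled cell type was checked against its markers. All 12 CD8 T cell markers on the list were lower in S100A4-positive libraries, where their summed level was 322 to 460 FPKM, against 1986 to 2647 FPKM in S100A4-negative libraries. Of 18 monocyte and macrophage markers 17 were higher, with summed levels of 6510 to 7406 FPKM in S100A4-positive and 901 to 1186 FPKM in S100A4-negative libraries. All 9 B cell markers were lower, with summed levels of 310 to 507 FPKM in S100A4-positive and 609 to 1693 FPKM in S100A4-negative libraries; the count was 5 without S100A4-negative replicate 2 and after median-of-ratios rescaling. These cell types move with the EGFP gate, and their part in the results given here was not tested.

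Of the 8 genes, 7 rose in S100A4-positive libraries, 0 fell and Siglech did not pass. Over all genes tested, 19.0% were higher and 43.4% lower, 62.3% in all; higher genes made up 30.4% of these calls, which became 52.4% when libraries were rescaled by median of ratios and 42.0% with quantile normalization. The median log2 fold change was 1.86 over the 8 genes and -0.36 over all genes tested. For 5 of the 8 genes every S100A4-positive library lay above every S100A4-negative one, which held for 20.9% of all genes tested. In a bulk sample, more cells of a type cannot be told apart from more RNA per cell. With limma voom on recovered reads, 6 of the 8 genes were called higher, where 19.1% of all genes tested were. The authors' deposited table calls 5 of the 8 genes, all higher; it calls 18.9% of its 28627 tested genes in either direction and 11.6% higher. Kit, Xcr1 and Siglech were not called there.

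**Figure D1:**
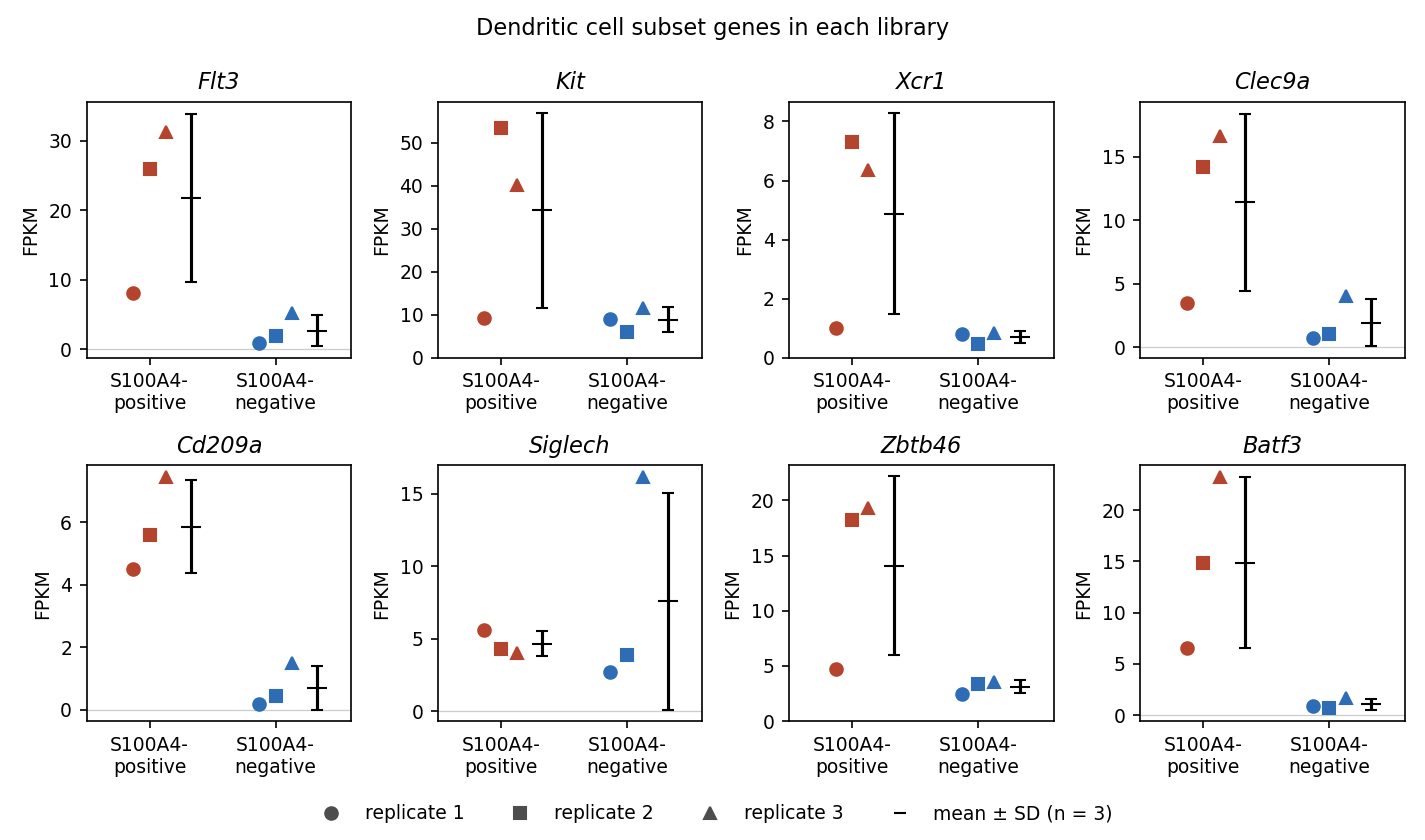
FPKM of each gene (y axes, linear, 1 panel per gene) in the S100A4-positive and S100A4-negative libraries; symbols mark the replicate number and the black bar gives the mean ± SD (n = 3). In 7 panels S100A4-positive replicate 1 is the lowest of its group, and in all 8 panels S100A4-negative replicate 3 is the highest of its group.

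The growth factor receptors come first. FLT3 is the receptor tyrosine kinase through which FLT3 ligand expands dendritic cell precursors, and mature conventional and plasmacytoid dendritic cells keep it. Flt3 (ENSMUSG00000042817, chromosome 5, 147330741 to 147400489, GRCm38, minus strand) had 8.15, 26.0 and 31.3 FPKM in S100A4-positive replicates 1, 2 and 3, from 525, 1474 and 2066 reads. It had 0.898, 1.92 and 5.21 FPKM in the S100A4-negative replicates, from 58, 130 and 370 reads. The groups did not overlap, and the libraries of each group were spread widely. Flt3 averaged 21.8 ± 12.1 FPKM in S100A4-positive and 2.68 ± 2.25 FPKM in S100A4-negative libraries (SD, n = 3 each). Its log2 fold change was 2.62 with an SE of 0.57 (limma adjusted p = 0.00595). The call held in all 14 alternatives tried.

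KIT, the stem cell factor receptor, is a close relative of FLT3; it marks early haematopoietic progenitors and mast cells, and some dendritic cells and their precursors carry it. Kit (ENSMUSG00000005672, chromosome 5, 75574916 to 75656722, plus strand) had 9.33, 53.4 and 40.3 FPKM in S100A4-positive libraries, against 8.97, 5.91 and 11.7 FPKM in S100A4-negative libraries. S100A4-positive replicate 1 lay among the S100A4-negative libraries and the other S100A4-positive libraries lay far above them, so the groups overlapped. The means were 34.3 ± 22.6 and 8.85 ± 2.88 FPKM in S100A4-positive and S100A4-negative libraries (SD, n = 3 each), and the log2 fold change of 1.58 (SE 0.59) only just passed (limma adjusted p = 0.0479). Without S100A4-positive replicate 1 it was 2.31 (limma adjusted p = 0.0007), and without any single other library the call was lost (up to 0.151). It was also lost without the filter (0.106), without a trended variance (0.0535) and with limma voom on recovered reads (0.0527), and the authors' deposited table gives an adjusted p of 0.119.

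The receptors' partners were looked at in a list of 16 ligand and signalling genes. Flt3l, the FLT3 ligand, which T cells also make, fell to 3.34 ± 1.58 FPKM in S100A4-positive libraries, against 14.8 ± 2.74 FPKM in S100A4-negative libraries (log2 fold change -1.93, limma adjusted p = 0.00157). Kitl, the KIT ligand, averaged 0.857 and 0.461 FPKM in S100A4-positive and S100A4-negative libraries and fell below the filter. Among the 15 tested, 5 genes were higher, 6 lower and 4 not called, and their median log2 fold change was 0.36; after median-of-ratios rescaling 8 were higher and 2 lower. Mitf, a transcription factor of mast cells and macrophages, and Gab2, an adaptor that carries KIT signals in mast cells, rose by 3.28 and 3.26 on the log2 scale. Lyn, a Src family kinase of myeloid and B cells, rose by 1.93. Among the other class III receptor tyrosine kinases, Csf1r, the macrophage growth factor receptor, rose by 5.52. Pdgfra and Pdgfrb, receptors of stromal cells, were too low to test; Pdgfrb averaged 1.70 FPKM in S100A4-positive and 0.0585 FPKM in S100A4-negative libraries.

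Csf1r averaged 1040 ± 204 FPKM in S100A4-positive and 22.6 ± 9.88 FPKM in S100A4-negative libraries (SD, n = 3 each), and in every library both Flt3 and Kit were below it. On the log2 scale Flt3 lay 5.69 below Csf1r in S100A4-positive and 2.78 below it in S100A4-negative libraries, a difference of -2.90 between the groups. For Kit the same difference was -3.94. The libraries of the groups did not overlap in either ratio, and the exact permutation test gave p = 0.1, the smallest that 3 against 3 allows (0.15 adjusted over the 9 gene pairs compared). Csf1r itself rose by 5.52, so a negative difference was built in for any gene that rose less. How many of all genes tested would not overlap against Csf1r was not computed, and no conclusion is drawn from this test. Kit lies between Pdgfra and Kdr on chromosome 5; Kdr, the endothelial VEGF receptor, rose by 2.16 on the log2 scale and averaged 4.69 FPKM in S100A4-positive and 0.249 FPKM in S100A4-negative libraries.

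Because Kit also marks mast cells and progenitors, their genes were read beside it. Of 14 genes of mast cells, basophils and progenitors, 8 passed the filter; 7 of these fell, 0 rose and Gata1 did not pass, with a median log2 fold change of -1.97. Gata2, a transcription factor of progenitors, mast cells and basophils, fell by 2.60, and the basophil protease genes Mcpt8 and Prss34 fell by 2.32 and 2.20. Hdc, which makes histamine, fell by 2.15. The authors' deposited table calls Hdc lower (adjusted p = 0.00108) but not Gata2, Mcpt8 or Prss34 (0.103, 0.394 and 0.241). Mcpt8 had 4.50, 9.72 and 52.0 FPKM in S100A4-negative replicates 1, 2 and 3, and Gata2 had 11.1, 7.17 and 34.7 FPKM. The list's summed level was 20.02 to 34.2 FPKM in S100A4-positive and 77.6 to 257 FPKM in S100A4-negative libraries, with the highest value in S100A4-negative replicate 3. The count lower was 4 without S100A4-positive replicate 2. Without S100A4-negative replicate 3 it was 7, with a median of -1.39. Cd34 and Meis1, genes of early progenitors, stayed below 1 FPKM in every library and were not tested. Their means, 0.450 and 0.509 FPKM in S100A4-positive and 0.178 and 0.147 FPKM in S100A4-negative libraries, went the other way. The mast cell protease genes Cma1 and Tpsb2 were not tested either. They averaged 0.072 and 0.070 FPKM in S100A4-positive and 0.60 and 0.22 FPKM in S100A4-negative libraries.

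XCR1 is the receptor for the chemokine XCL1 and in mouse blood cells is carried by conventional type 1 dendritic cells. Xcr1 (ENSMUSG00000060509, chromosome 9, 123852315 to 123862029, minus strand) had 1.01, 7.30 and 6.34 FPKM in S100A4-positive libraries, from 76, 485 and 490 reads, against 0.807, 0.480 and 0.842 FPKM in S100A4-negative libraries, from 61, 38 and 70 reads. The groups did not overlap, but S100A4-positive replicate 1 stood just above the highest S100A4-negative library. Xcr1 averaged 4.88 ± 3.39 and 0.710 ± 0.200 FPKM in S100A4-positive and S100A4-negative libraries (SD, n = 3 each), and the log2 fold change was 1.54 (SE 0.51, limma adjusted p = 0.0313). Without S100A4-positive replicate 1 the fold change was 2.20 (limma adjusted p = 0.00026); without any single other library, or without the filter, Xcr1 did not pass (0.0634 to 0.104). The authors' deposited table gives an adjusted p of 0.0505.

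The ligand moved the other way. Xcl1, which activated CD8+ T cells and natural killer cells make, had 2.03, 1.41 and 2.75 FPKM in S100A4-positive libraries, against 13.7, 5.59 and 14.5 FPKM in S100A4-negative libraries, and the groups did not overlap. Its log2 fold change was -1.92 (SE 0.35, limma adjusted p = 0.00265). Of the 7 natural killer cell genes listed, 5 were tested; 4 fell and Klri2 did not pass.

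The lectin receptors differed most among themselves. CLEC9A binds actin exposed on dead cells and routes their antigens to cross-presentation in type 1 dendritic cells. Clec9a (ENSMUSG00000046080, chromosome 6, 129408862 to 129424763, plus strand) had 3.50, 14.2 and 16.6 FPKM in S100A4-positive libraries, against 0.689, 1.03 and 4.03 FPKM in S100A4-negative libraries. S100A4-positive replicate 1 lay below S100A4-negative replicate 3, so the groups overlapped. The log2 fold change was 2.04 (SE 0.60, limma adjusted p = 0.02). The call was lost without replicate 2 or 3 of the S100A4-positive libraries, without replicate 1 or 2 of the S100A4-negative ones (0.0629 to 0.0720), and without the filter (0.0527). In GENCODE M21, 5.6% of the exon bases of Clec9a also belong to Clec1b, the platelet lectin gene next to it on the same strand, which rose by 1.09, so reads in that stretch are uncertain.

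CD209A, a relative of human DC-SIGN, is carried by type 2 dendritic cells and by dendritic cells derived from monocytes. Cd209a (ENSMUSG00000031494, chromosome 8, 3743397 to 3748984, minus strand) had 4.52, 5.6 and 7.46 FPKM in S100A4-positive libraries, from 77, 84 and 130 reads. It had 0.176, 0.448 and 1.49 FPKM in S100A4-negative libraries, from 3, 8 and 28 reads. The groups did not overlap, and S100A4-positive replicate 1 was close to the others of its group. The log2 fold change was 2.06 (SE 0.31, limma adjusted p = 0.00114), and it passed in all 13 alternatives in which Cd209a was tested. Cd209a is 1 of a family of similar genes, so reads can be divided among its members; Cd209b and Cd209d averaged 1.09 and 1.35 FPKM in S100A4-positive and 1.24 and 0.727 FPKM in S100A4-negative libraries and did not pass, and Cd209f and Cd209g were listed at 0 in every library.

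SIGLEC-H is an endocytic receptor of mouse plasmacytoid dendritic cells, and some macrophages also carry it. Siglech (ENSMUSG00000051504, chromosome 7, 55768178 to 55778925, plus strand) had 5.61, 4.29 and 4.01 FPKM in S100A4-positive libraries, from 153, 103 and 112 reads. It had 2.67, 3.88 and 16.2 FPKM in S100A4-negative libraries, from 73, 111 and 485 reads. S100A4-negative replicate 3 stood above all other libraries, and the remaining S100A4-negative libraries lay below all S100A4-positive ones. The log2 fold change was -0.27 (SE 0.53, limma adjusted p = 0.671), and without S100A4-negative replicate 3 it was 0.40 (limma adjusted p = 0.167). Its sign also turned after median-of-ratios rescaling and quantile normalization, to 0.045 and 0.0045, so no direction is given.

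The difference between Siglech and each other gene was tested within libraries. Set against Siglech, the log2 change of the other 7 genes was larger by 1.81 (Xcr1) to 3.08 (Batf3). The groups did not overlap in this ratio for Flt3, Clec9a, Cd209a and Batf3, each with an exact permutation p of 0.1, the smallest possible (0.15 adjusted over 9 pairs). They overlapped for Kit, Xcr1 and Zbtb46 (exact permutation p = 0.2, 0.2 and 0.3). Siglech was the only gene of the 8 not called in these same data, so larger changes of the other 7 were built into the comparison. Its high level in S100A4-negative replicate 3 (16.2 FPKM) enters every ratio. How many of all genes tested would not overlap against Siglech was not computed, so these tests add no separate evidence.

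The start regions of the 3 lectin genes are shown together, since 2 of these genes rose and Siglech did not pass. Each window runs from 250 bases before to 50 bases after the RefSeq gene start (GRCm38.p6), 5′ to 3′ on the gene's strand, and all 8 genes had such a window. Capitals mark matches, on either strand, to 7 short motifs: TGANTCA (AP-1), GGAA and GAAA set apart by any 2 bases (ETS-IRF), GAAA and GAAA set apart by any 2 bases (IRF), GAGGAAGT (PU.1), TTCNNNGAA (STAT), TGTGGTT (RUNX) and CAGGTG (an E-box).
Clec9a, chr6:129408612-129408911, plus strand: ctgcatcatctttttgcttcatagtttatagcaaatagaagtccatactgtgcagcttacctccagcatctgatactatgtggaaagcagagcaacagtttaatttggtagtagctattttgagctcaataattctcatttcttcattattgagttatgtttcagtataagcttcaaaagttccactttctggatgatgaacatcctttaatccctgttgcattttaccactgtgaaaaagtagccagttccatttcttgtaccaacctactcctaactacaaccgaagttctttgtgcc
Cd209a, chr8:3748935-3749234, minus strand: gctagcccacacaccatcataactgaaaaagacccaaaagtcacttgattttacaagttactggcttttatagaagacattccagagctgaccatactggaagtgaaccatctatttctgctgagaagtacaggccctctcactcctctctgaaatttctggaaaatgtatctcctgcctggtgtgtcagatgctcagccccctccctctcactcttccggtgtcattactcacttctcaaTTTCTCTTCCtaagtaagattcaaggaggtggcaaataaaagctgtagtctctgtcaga
Siglech, chr7:55767934-55768233, plus strand: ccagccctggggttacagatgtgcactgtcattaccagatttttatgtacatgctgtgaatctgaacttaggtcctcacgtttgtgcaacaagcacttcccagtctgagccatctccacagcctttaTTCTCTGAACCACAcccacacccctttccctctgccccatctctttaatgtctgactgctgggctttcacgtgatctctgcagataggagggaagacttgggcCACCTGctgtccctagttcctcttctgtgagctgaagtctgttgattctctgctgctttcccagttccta

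Clec9a had no match in this window. Cd209a had 1 ETS-IRF match starting 9 bases before the gene start; 2.72% of 32851 promoter windows hold that motif. Siglech had an E-box, found in 20.2% of windows, 20 bases before its start, and overlapping STAT and RUNX matches starting 123 and 116 bases before it, found in 8.30% and 5.27% of windows. Of the other genes, Zbtb46 had an AP-1 match (7.81% of windows) and an E-box and Batf3 a STAT match, while Flt3, Kit and Xcr1 had none. The windows of Zbtb46 (chr2:181424339-181424638) and Batf3 (chr1:191098164-191098463) lie inside the gene bounds given below. Their matches are therefore not at the outermost annotated start. IRF and PU.1 motifs were in 3.44% and 3.20% of all windows and in none of these 8 genes'. These are matches of letters only and say nothing of binding.

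The transcription factors followed the receptors. ZBTB46 is a zinc finger factor of conventional dendritic cells and their committed precursors, also found in endothelial cells and erythroid progenitors. Zbtb46 (ENSMUSG00000027583, chromosome 2, 181387762 to 181459426, minus strand) had 4.72, 18.2 and 19.3 FPKM in S100A4-positive libraries, against 2.47, 3.34 and 3.59 FPKM in S100A4-negative libraries. The groups did not overlap, with S100A4-positive replicate 1 closer to the S100A4-negative libraries than to its own group. The log2 fold change was 1.67 (SE 0.47, limma adjusted p = 0.0164), and it was lost without S100A4-positive replicate 2 or 3 (0.0604 and 0.0527). Erythroid and endothelial genes were read beside it: Hba-a1, an alpha globin gene, had 11.8, 65.8 and 55.9 FPKM in S100A4-positive and 13.1, 19.7 and 80.3 FPKM in S100A4-negative libraries and did not pass (limma adjusted p = 0.725). Of the 5 genes tested in that list of 8, Kdr rose, Pecam1 fell and 3 did not pass; its summed level was 81.7 to 252 FPKM in S100A4-positive and 96.0 to 299 FPKM in S100A4-negative libraries, and the part of these cells in the Zbtb46 result was not tested.

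BATF3 is the AP-1 family factor without which mice lack most type 1 dendritic cells, and activated T cells also make it. Batf3 (ENSMUSG00000026630, chromosome 1, 191097847 to 191108945, plus strand) had 6.55, 14.9 and 23.2 FPKM in S100A4-positive libraries, from 82, 164 and 298 reads, against 0.877, 0.685 and 1.67 FPKM in S100A4-negative libraries, from 11, 9 and 23 reads. Every S100A4-positive library was above every S100A4-negative one. The means were 14.9 ± 8.35 and 1.08 ± 0.521 FPKM in S100A4-positive and S100A4-negative libraries (SD, n = 3 each). The log2 fold change was 2.81 (SE 0.41, limma adjusted p = 0.00108), the highest of the 8 genes, and kept its call in all 14 alternatives tried.

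Of the BATF family and its partners, Batf2, an interferon-induced relative, rose by 2.48 and averaged 5.37 ± 0.958 FPKM in S100A4-positive and 0.135 ± 0.0522 FPKM in S100A4-negative libraries. Batf, which effector T cells need, averaged 48.6 ± 9.84 and 50.6 ± 13.9 FPKM in S100A4-positive and S100A4-negative libraries, and its log2 fold change of -0.045 did not pass (limma adjusted p = 0.874). Irf4, an interferon regulatory factor of activated lymphocytes and type 2 dendritic cells, fell by 1.58. Irf8, the interferon regulatory factor that type 1 dendritic cells require and B cells also express, averaged 165 ± 29.4 and 111 ± 52.0 FPKM in S100A4-positive and S100A4-negative libraries and did not pass (limma adjusted p = 0.119). The authors' deposited table calls Irf8 higher (adjusted p = 0.0217). Its S100A4-negative replicates 1, 2 and 3 had 62.35, 105 and 165.9 FPKM. The AP-1 partners Jun and Junb did not pass the limma fit, and Jund was listed at 0 in every library.

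**Figure D2:**
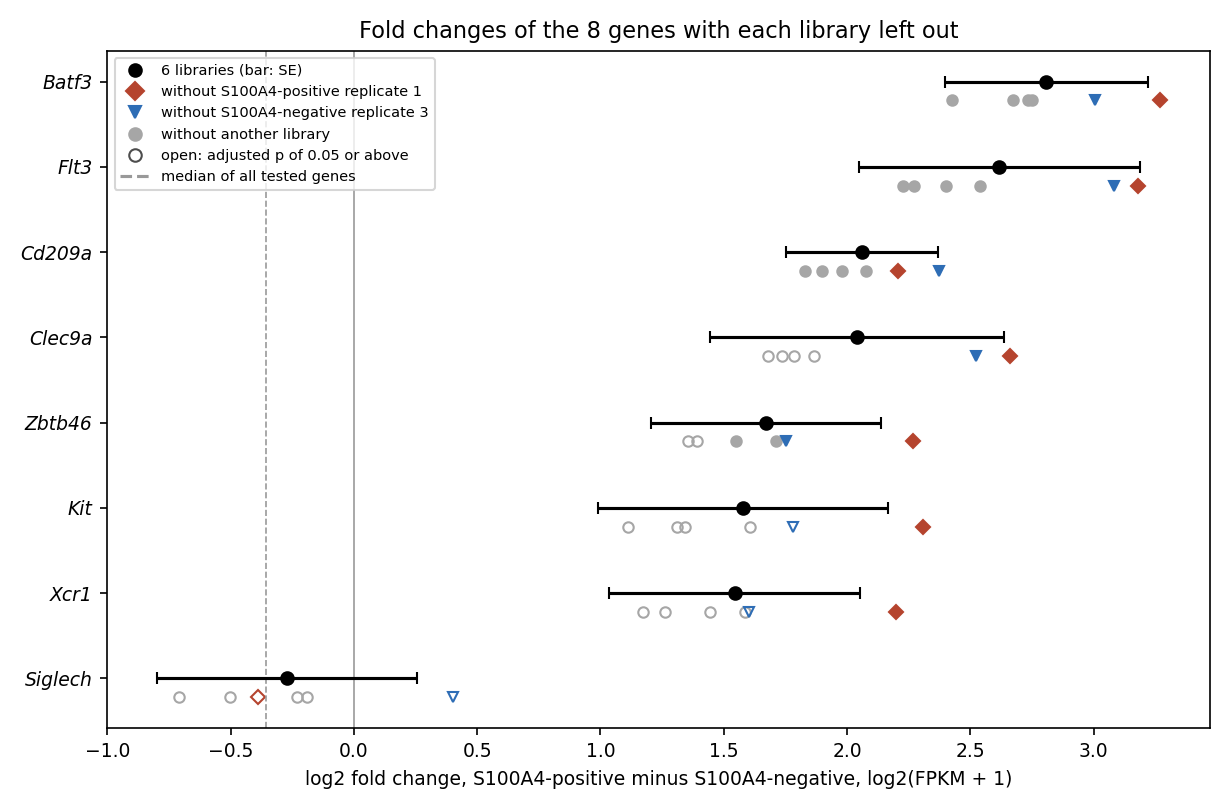
Log2 fold change (x axis, S100A4-positive minus S100A4-negative on log2(FPKM + 1)) of each gene with all 6 libraries (black, bar: SE) and, just under it, with each library left out in turn; open symbols did not pass an adjusted p of 0.05. Leaving out S100A4-positive replicate 1 gave the highest value for Batf3, Flt3, Clec9a, Zbtb46, Kit and Xcr1, and leaving out S100A4-negative replicate 3 turned Siglech to 0.40.

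Levels were ordered by group means of the deposited FPKM, so the order of genes, Kit and Flt3 included, depends on the transcript lengths used there. In S100A4-positive libraries the order was Kit (34.3 FPKM), Flt3 (21.8), Batf3 (14.9), Zbtb46 (14.1), Clec9a (11.4), Cd209a (5.86), Xcr1 (4.88) and Siglech (4.64). In S100A4-negative libraries it was Kit (8.85 FPKM), Siglech (7.57), Zbtb46 (3.13), Flt3 (2.68), Clec9a (1.92), Batf3 (1.08), Xcr1 (0.710) and Cd209a (0.706). The ranges of neighbours in these orders overlapped in every case, although within libraries some neighbours kept 1 order. In 3 of 3 S100A4-positive libraries Kit was above Flt3, Flt3 above Batf3 and Zbtb46 above Clec9a. In 3 of 3 S100A4-negative libraries Siglech was above Zbtb46, Flt3 above Clec9a and Batf3 above Xcr1. The other neighbours held their order in 2 of 3 libraries. By group mean Siglech stood last in S100A4-positive libraries and next to the top in S100A4-negative ones. In S100A4-positive replicate 1, however, its 5.61 FPKM lay above Zbtb46 (4.72), Cd209a (4.52), Clec9a (3.50) and Xcr1 (1.01). In S100A4-negative replicate 3 its 16.2 FPKM lay above Kit (11.7).

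The libraries of a group were far from even for these genes. The coefficient of variation was 55.6% to 69.4% in S100A4-positive libraries for Flt3, Kit, Xcr1, Clec9a, Zbtb46 and Batf3, and 25.3% and 18.4% for Cd209a and Siglech, against a median of 16.8% over all genes tested. In S100A4-negative libraries it ran from 18.8% (Zbtb46) to 98.6% (Cd209a), against a median of 14.0% over all genes tested. S100A4-positive replicate 1 was the lowest of its group for 7 of the 8 genes, which held for 31.8% of all genes tested, and S100A4-negative replicate 3 was the highest of its group for 8 of 8, against 44.8% of all genes tested. As a share of the mean of replicates 2 and 3, the level in S100A4-positive replicate 1 was 14.8% for Xcr1, 19.9% for Kit, 22.7% for Clec9a, 25.2% for Zbtb46, 28.4% for Flt3 and 34.4% for Batf3. It was 69.3% for Cd209a and 135% for Siglech, with a median of 104% over all genes tested. The total of that library, 16943898 reads, lay between those of replicates 2 and 3. These library comparisons were chosen after the values were seen.

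Genes that share this unevenness were counted in the marker lists. All 11 type 1 dendritic cell genes found and 12 of 13 shared and mature dendritic cell genes were lowest in S100A4-positive replicate 1 within their group, as were 4 of 12 type 2 and 7 of 15 plasmacytoid dendritic cell genes. So were all 9 B cell genes, 4 of 18 monocyte and macrophage genes and 5 of 12 CD8 T cell genes. The median level in S100A4-positive replicate 1, as a share of the mean of replicates 2 and 3, was 49.6% for shared and mature dendritic cell genes, 51.5% for endothelial and erythroblast genes, 59.3% for natural killer cell genes, 68.3% for B cell genes, 74.5% for type 1 genes, 85.7% for CD8 T cell genes, 91.4% for type 2 genes, 104% for plasmacytoid genes and 111% for monocyte and macrophage genes. For the 8 genes it was 26.8%.

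**Figure D3:**
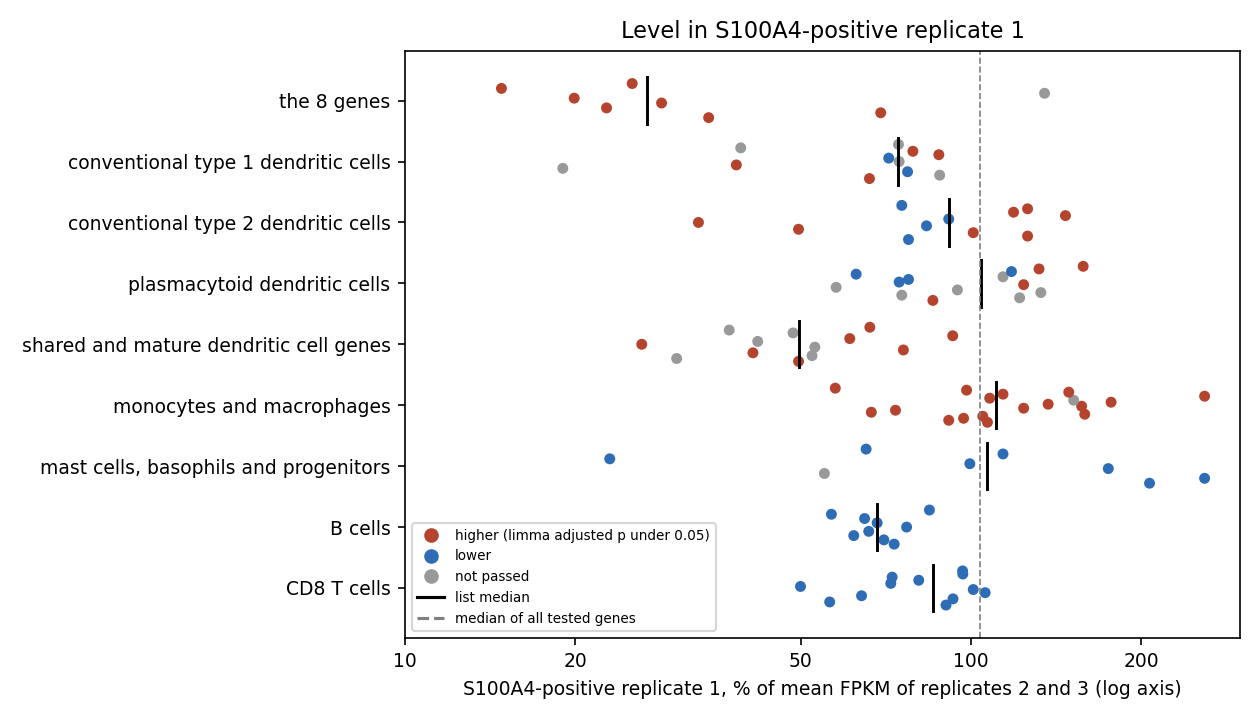
FPKM in S100A4-positive replicate 1 as a percentage of the mean of S100A4-positive replicates 2 and 3 (x axis, log scale), for each tested gene of the 8 and of 8 marker lists, coloured by its call between the groups; the black line is the list's median and the dashed line the median of all tested genes (104%). Xcr1, Kit, Clec9a, Zbtb46, Flt3 and Batf3 lie between 14.8% and 34.4%.

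S100A4-negative replicate 3 stood out in some of the other cell type lists and not in others. Within the S100A4-negative group it was highest for 12 of 15 plasmacytoid dendritic cell genes, 9 of 11 type 1, 6 of 12 type 2 and 8 of 13 shared and mature dendritic cell genes. It was also highest for 12 of 14 mast cell, basophil and progenitor genes, 9 of 9 B cell genes and 7 of 8 endothelial and erythroblast genes, but for 3 of 18 monocyte and macrophage genes, 1 of 7 natural killer cell genes and 0 of 12 CD8 T cell genes. Relative to the mean of replicates 1 and 2, its level was 4.93 times for Siglech, 4.79 for Cd209a, 4.70 for Clec9a, 3.70 for Flt3, 2.14 for Batf3, 1.57 for Kit, 1.31 for Xcr1 and 1.23 for Zbtb46, with a median of 1.06 over all genes tested. The same median was 1.68 times over the tested plasmacytoid genes, which ran from 0.775 for Runx2 to 6.55 for Cd300c. It was 4.7 times over the tested mast cell, basophil and progenitor genes and 4.21 times over the tested endothelial and erythroblast genes. For B cell, type 1, shared and mature, and type 2 dendritic cell genes it was 1.95, 1.93, 1.52 and 1.16 times. For natural killer cell, monocyte and macrophage, and CD8 T cell genes it was 1.1, 0.931 and 0.818 times.

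The wider lists of each subset moved less evenly than the 8 genes. Of 11 tested type 1 dendritic cell genes, 4 were higher, 2 lower and 5 not called, and the median log2 fold change was 0.66. Without S100A4-negative replicate 3 the list had 6 higher, 1 lower and a median of 1.00, and after median-of-ratios rescaling 6 higher, 1 lower and a median of 1.03. Ifi205, an interferon-inducible gene, rose by 3.84 and had 11.7, 34.7 and 25.9 FPKM in S100A4-positive libraries, against 0.241, 0.414 and 1.34 FPKM in S100A4-negative libraries. Naaa, a lysosomal amidase, and Cadm1, an adhesion molecule of type 1 dendritic cells, rose by 2.86 and 2.41. Cxcr3, a chemokine receptor that effector T cells carry in quantity, fell by 2.37. The list's summed level was 599 to 772 FPKM in S100A4-positive and 366 to 653 FPKM in S100A4-negative libraries.

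Of 11 tested type 2 dendritic cell genes, 7 rose and 4 fell, with a median of 1.44. Sirpa, the inhibitory receptor for CD47 found on type 2 dendritic cells and macrophages, rose by 4.24. The lectin genes Clec12a and Clec10a rose by 2.86 and 2.29, and Clec10a had 8.48 to 11.0 FPKM in S100A4-positive and 0.446 to 3.15 FPKM in S100A4-negative libraries. Tbx21, the T-box factor of cytotoxic and type 1 helper T cells, fell by 2.41.

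Of 14 tested plasmacytoid dendritic cell genes, 4 were higher, 4 lower and 6 not called. Their median was 0.058, and it was negative without S100A4-negative replicate 1 or 2 (-0.19 and -0.017). It was 0.24 without S100A4-negative replicate 3, with 5 higher and 3 lower, and 0.37 after median-of-ratios rescaling, with 6 higher and 3 lower. The genes with the highest rises were Tlr7, a sensor of single-stranded RNA, by 3.08, and Lair1, an inhibitory collagen receptor, by 3.03; macrophages express both. Pacsin1, an endocytic adaptor, and Ly6d, a surface protein also on B cells, fell by 1.97 and 1.49. Tcf4, which encodes the E protein that directs plasmacytoid dendritic cell fate, averaged 37.3 ± 3.69 FPKM in S100A4-positive and 67.3 ± 14.9 FPKM in S100A4-negative libraries. It was called lower (log2 fold change -0.82, limma adjusted p = 0.00552), but not in the authors' deposited table (adjusted p = 0.278).

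Of 13 shared and mature dendritic cell genes, 7 were higher, 0 lower and 6 not called, and their median was 0.91; 10 were higher without S100A4-positive replicate 1 and 5 without replicate 2 or 3 of that group. Ccl22, a chemokine of mature dendritic cells, and Fscn1, the actin-bundling protein that mature dendritic cells make on migration, rose by 3.97 and 3.91. Fscn1 had 122, 434 and 493 FPKM in S100A4-positive libraries, against 12.9, 17.9 and 28.7 FPKM in S100A4-negative libraries. Itgax, the integrin chain CD11c, rose by 2.94 and had 298 to 405 FPKM in S100A4-positive and 36.2 to 51.5 FPKM in S100A4-negative libraries. Id2, a factor needed for type 1 dendritic cells and effector T cells, rose by 1.95. Of the 9 tested CD209 and SIGLEC family genes, 3 rose, 1 fell and 5 did not pass: Siglece, Siglec1 and Siglecf, found on myeloid cells, rose by 2.08, 1.46 and 0.83, and Cd22, the B cell sialic acid receptor, fell by 1.42. The count higher was 2 without S100A4-negative replicate 1 or 3. The authors' deposited table calls Siglece but not Siglec1, Siglecf or Cd22 (adjusted p = 0.0755, 0.0559 and 0.0745). Siglec1 had 11.1, 4.14 and 3.29 FPKM in S100A4-positive replicates 1, 2 and 3.

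**Figure D4:**
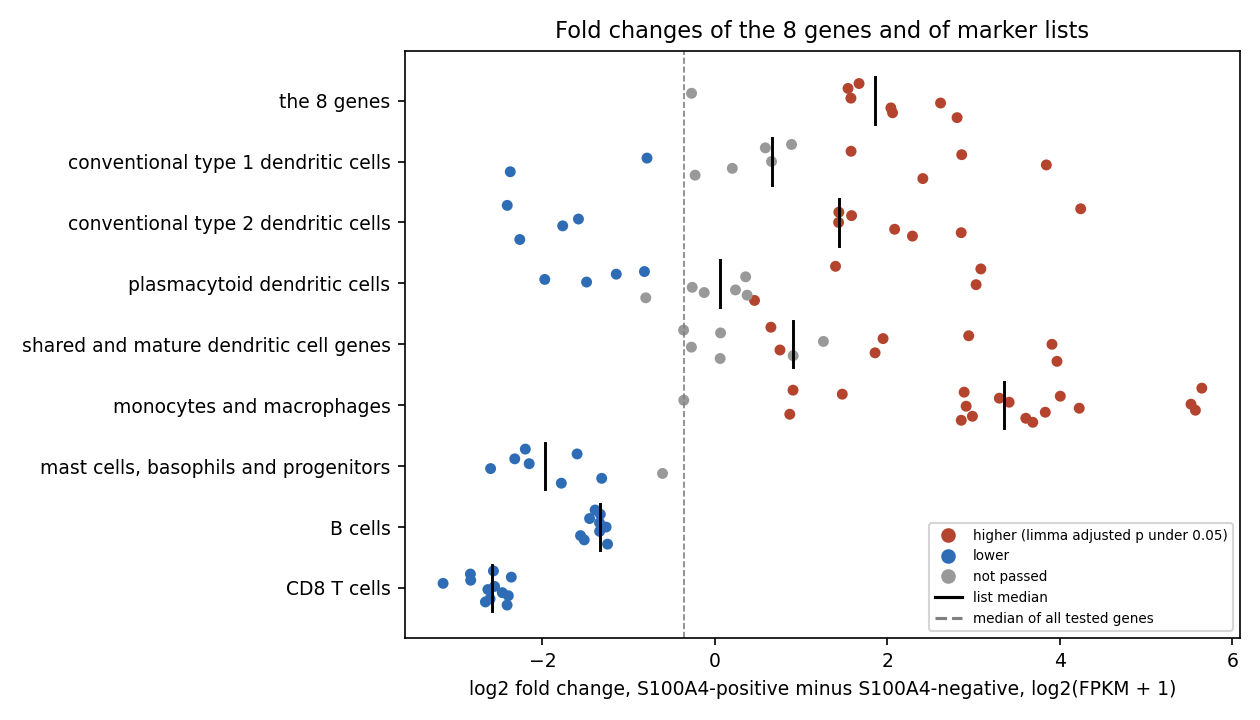
Log2 fold change (x axis, S100A4-positive minus S100A4-negative on log2(FPKM + 1)) of each tested gene of the 8 and of 8 marker lists, coloured by call; black lines are list medians and the dashed line is the median of all tested genes (-0.36). On this scale, which makes changes of weakly expressed genes come out too small, the 7 called genes of the 8 lie from 1.54 to 2.81. These values are below the median of the monocyte and macrophage list (3.36).

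The genes whose 6-library patterns were most like those of the 8 were found by the root-mean-square distance between log2(FPKM + 1) values centred on each gene's mean, among 11117 named genes tested, leaving out the 8 themselves. Arhgap28 and Zfp366 were nearest to Batf3 (distances of 0.112 and 0.122), Rgs1 and Ppp1r14a to Zbtb46 (0.125 and 0.135), and Rogdi and Ctsh to Cd209a (0.165 and 0.174). Htra4 and Dscam were nearest to Xcr1 (0.206 and 0.212), Bcl2l14 and Cxcl9 to Flt3 (0.207 and 0.253), Pdia5 and Bcl2l14 to Clec9a (0.243 and 0.251), and Mab21l3 and Dbn1 to Kit (0.276 and 0.279). Mir697 and Prtn3 were nearest to Siglech (0.252 and 0.314). Among the 8 genes the nearest pairs were Kit with Xcr1 (0.192), Xcr1 with Zbtb46 (0.211) and Flt3 with Clec9a (0.312). Kit and Xcr1 were each closer to the other than to any gene searched, and every pair with Siglech was at 1.26 or more.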

How the data were processed

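RNA sequencing libraries of S100A4-positive and S100A4-negative cells (3 each) were compared. The authors deposited FPKM per gene for each library and, per the file headers, a table of their comparison, which gives for each gene the mean of normalized reads in either group (a signal), the log2 ratio and its p-value before and after adjustment. Per the submitters' processing notes HISAT2 2.1.0, Cufflinks and Cuffnorm were used with mm10; the counting tool and strand setting are not given in the sources used here. Reads were recovered from FPKM and the deposited group means: 100.0% of 135018 values above 0 lay within 0.02 of a whole read.

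The 13241 genes whose mean reached 1 FPKM were tested on log2(FPKM + 1) by limma 3.58.1 (R 4.3.3), whose prior variance followed the mean level, and p-values were adjusted over all of them after Benjamini and Hochberg. The code was tested on simulated data. Single comparisons used exact two-sided permutation tests (scipy 1.17.1). Annotation came from GENCODE M21 (GRCm38, the build mm10 names) and promoter sequence from RefSeq (GRCm38.p6). The 8 genes and the lists were chosen with earlier results of these data known. Genes named are the 8, up to 4 called genes per list with the largest change, all of 3 short lists, Flt3l, Kitl and the 2 nearest genes per member; a few others, named after their values were seen, are the examples in the checks of libraries and cell types. Alternatives were another pseudocount, other filters, rescaling, quantile normalization, no trend, the replicate number as a block, voom on recovered reads and leaving out each library. List counts without each library and after rescaling were added after seeing the data.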

Additional observations from a re-analysis of the deposited data

How the results depend on the processing

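With 3 libraries per group, calls of genes that vary between libraries rest on few values, and for Cd209a and Batf3 on 3 to 28 reads per S100A4-negative library. The count of the 8 genes called, 7, ran from 3 to 7 with each library left out: it was 3 without S100A4-positive replicate 2 or 3, 4 without S100A4-negative replicate 1 or 2, 5 without S100A4-negative replicate 3 and 7 without S100A4-positive replicate 1. It was 4 without the filter, where 28627 genes were tested, 5 of 6 tested at a mean FPKM of at least 5, which left out Xcr1 and Cd209a, 6 without a trended variance and with voom, and 7 under the other alternatives. Of all genes tested in the same fits, 2948 of 28627 were higher without the filter, 1935 of 9498 at a mean FPKM of at least 5, 2482 of 13241 without a trended variance and 2525 with voom, against 2512 of 13241 as reported. After median-of-ratios rescaling 3618 of 13241 were higher, with quantile normalization 3032, with the replicate number as a block 2669 and with a pseudocount of 0.1 2503. With each library left out, 2189 to 2512 of 13241 were higher. Flt3, Cd209a and Batf3 kept their calls in every alternative in which they were tested. Siglech changed sign after median-of-ratios rescaling (0.045), after quantile normalization (0.0045) and without S100A4-negative replicate 3; its range with each library left out was -0.71 to 0.40, and the cause was not tested. The count of all genes called, 8253, ran from 6881 to 8168 with each library left out. With the replicate number as a block, 8857 genes and 7 of the 8 were called. In that fit the SE of Flt3 was 0.22, against 0.57 as reported, and that of Kit 0.53, against 0.59. Deviations of same-numbered libraries from their group means correlated at 0.376, 0.083 and 0.366 across genes for numbers 1, 2 and 3. S100A4-positive replicate 2 correlated better with S100A4-negative replicate 3 (0.146) than with its own number. The main fit did not pair the libraries, and these values do not settle whether the numbers pair them.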

Other observations

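Some genes of other roles, named after their values were seen, were also uneven within the S100A4-positive group, with replicate 1 the lowest. Ccr7, the chemokine receptor that guides mature dendritic cells and naive T cells to lymph nodes, had 141, 449 and 484 FPKM in S100A4-positive libraries and 337, 261 and 307 FPKM in S100A4-negative libraries, and did not pass (limma adjusted p = 0.913). H2-Ab1, an MHC class II chain, had 1483, 3356 and 3704 FPKM in S100A4-positive and 590.4, 1291 and 1761 FPKM in S100A4-negative libraries (limma adjusted p = 0.0540). Klri2, a killer-cell lectin-like receptor gene, had 0.528, 3.99 and 3.51 FPKM in S100A4-positive and 0.587, 0.546 and 0.630 FPKM in S100A4-negative libraries (limma adjusted p = 0.0687). Hbb-bs, a beta globin gene, had 30.8, 143 and 108 FPKM in S100A4-positive and 31.8, 41.2 and 154 FPKM in S100A4-negative libraries (limma adjusted p = 0.634).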
